A study of Mus musculus with 14 samples.

Results

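The Cyp3a genes and the nuclear receptors PXR and CAR were described in the liver of male TALLYHO/JnG mice, an inbred strain with polygenic type 2 diabetes, given indole or water. Indole is a product of tryptophan breakdown by gut bacteria. The members were the 10 genes of the raw count table named Cyp3a11, Cyp3a13, Cyp3a16, Cyp3a25, Cyp3a41a, Cyp3a41b, Cyp3a44, Cyp3a59, Nr1i2 (PXR) and Nr1i3 (CAR), of 55487 genes in all. The mice were 8 to 12 weeks old, and 7 received indole at 20 mg/kg and 7 the vehicle (water) by oral gavage 2 times a day for 7 days, with further doses between a pair of metabolic tests. The right liver lobe was collected the day after the second test and its polyadenylated RNA was sequenced strand-specifically, giving 1 library a mouse. Mice are named G1 to G14 as in the labels, where G1, G4, G6, G9, G10, G11 and G13 received vehicle and the others indole. Both groups thus share the diabetic background, the gavage and the metabolic tests.

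CYP3A enzymes are haem proteins of the endoplasmic reticulum that oxidise a wide range of drugs, steroids and bile acids, and Cyp3a11 is the mouse liver gene most often used to read out PXR activity. PXR and CAR pair with the retinoid X receptor (Rxra) and bind repeats of the hexamer AGGTCA or AGTTCA in the control regions of their targets. PXR is activated by binding many chemically unlike compounds, among them some bacterial indole derivatives, whereas CAR is held in the cytoplasm by a chaperone complex and released when it is dephosphorylated. Both receptors are expressed mainly in liver and intestine.

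The libraries held 15390922 to 21060376 reads with vehicle and 15197498 to 18464326 in the indole group. The summed hepatocyte markers (Alb, Apoa1, Ttr, Serpina1c and Tat) were at 62736 to 93763 CPM (read counts scaled to the size of the library) over the 14 libraries. They were at 62736 to 70440 CPM in G1 to G4, which come from both groups, and at 78580.5 CPM or more elsewhere. The factors that adjust library size in CPM were 1.073 to 1.083 in G1 to G4, against 0.931 to 1.004 elsewhere. The part of this split in the relations between genes across mice was not tested. All 5 of 5 erythroid markers, haemoglobin genes and Alas2, were at an unadjusted p below 0.05 and higher with indole in edgeR, beside 1.53% of all genes tested. Ttr (1 of 5 hepatocyte markers) and Clec4g (1 of 6 for sinusoidal endothelium) were also higher at an unadjusted p below 0.05. So were Fabp2 and Cela1, the only genes tested of the 6 intestinal and 5 pancreatic markers. Col1a1 (1 of 7 stellate and fibroblast markers) and Krt19 (1 of 5 bile duct markers) were lower, beside 2.28% of all genes. In direction alone, 3 of the 7 stellate and fibroblast markers were higher and 4 lower. Of the hepatocyte markers 4 were higher and 1 lower, all 6 endothelial ones were higher and all 5 bile duct ones lower. Of the 11 Kupffer cell and macrophage markers 10 were higher and 1 lower, beside 51.3% of all genes tested that were higher. Pericentral hepatocyte markers were higher for 4 and lower for 3, and periportal ones higher for 2 and lower for 5. No gene of these 3 lists was at an unadjusted p below 0.05 in edgeR, beside 3.81% of all genes tested. The summed level of the 5 erythroid markers was 204 to 383 CPM with vehicle and 263 to 1091 CPM in the indole group. Its highest values were in G5 and G14. Of the 6 intestinal markers Lct, Sis, Cdx1 and Cdx2 had no read in any mouse. Of the 5 pancreatic markers Prss1 and Amy2a5 had none, and Cpa1 and Pnlip had 1 read each. No pair of libraries in a group agreed within sampling noise, and all 14 were kept as separate samples.

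Of the 8 Cyp3a members 7 lie in a single stretch of chromosome 5, and several are close copies of each other. In the coordinates of the count table (GRCm38), the stretch begins with Cyp3a16 at chr5:145436309-145469723 on the minus strand and runs through Cyp3a41b (chr5:145558664-145584730), Cyp3a41a (chr5:145694049-145720136), Cyp3a44 (chr5:145773983-145805874), Cyp3a11 (chr5:145854426-145879964) and Cyp3a25 (chr5:145977194-146009618) to Cyp3a59 on the plus strand at chr5:146079257-146113287. Cyp3a13 lies apart on the same chromosome at chr5:137892932-137921619. Nr1i2 lies at chr16:38248323-38294824 on the minus strand and Nr1i3 at chr1:171213970-171220701 on the plus strand. The main transcripts of Cyp3a41a and Cyp3a41b were 99.9% identical and those of Cyp3a25 and Cyp3a59 were 97.0% identical. Cyp3a11 shared 91.6% of aligned bases with Cyp3a16, 94.5% with Cyp3a41a and 93.5% with Cyp3a44, but 72.1% with Cyp3a13 and 74.1% with Cyp3a25. Every window of 100 bases along each transcript was also matched exactly to every other annotated transcript. For Cyp3a41a 90.8% of windows, and for Cyp3a41b 88.2%, occurred in another gene, and a read from such a window cannot be assigned to 1 gene by its sequence. Since the study counted only reads that mapped to a single place, such reads of that length would not be counted on any gene. The share was 6.05% for Cyp3a25 and 5.61% for Cyp3a59, each matching the other. It was 5.37% for Cyp3a44, 0.312% for Cyp3a11, 0.123% for Cyp3a16 and 0% for Cyp3a13, Nr1i2 and Nr1i3.

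The promoters of 4 members are shown because they belong to the most abundant member, the relative of it that varied most among the members tested, and the near-identical pair whose levels moved together across mice. Each runs from 250 bases before to 50 bases after the RefSeq start (GRCm38.p6), 5′ to 3′ on the strand of the gene. Capitals mark the HNF4 motif CAAAGTCCA and the receptor half-sites AGGTCA and AGTTCA on either strand, so that TGACCT and TGAACT are half-sites read from the other strand.
Cyp3a11 (chr5:145879805-145880104, minus strand): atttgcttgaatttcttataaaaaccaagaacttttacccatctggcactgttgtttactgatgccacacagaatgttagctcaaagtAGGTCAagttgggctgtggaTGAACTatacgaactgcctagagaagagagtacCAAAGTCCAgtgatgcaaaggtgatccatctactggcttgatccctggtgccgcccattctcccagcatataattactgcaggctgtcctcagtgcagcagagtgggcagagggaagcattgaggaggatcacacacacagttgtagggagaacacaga
Cyp3a44 (chr5:145805825-145806124, minus strand): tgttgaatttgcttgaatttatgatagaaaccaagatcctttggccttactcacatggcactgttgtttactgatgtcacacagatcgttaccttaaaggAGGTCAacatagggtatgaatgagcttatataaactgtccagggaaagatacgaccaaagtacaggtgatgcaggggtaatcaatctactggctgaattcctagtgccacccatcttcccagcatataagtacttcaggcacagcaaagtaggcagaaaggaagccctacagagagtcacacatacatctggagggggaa
Cyp3a25 (chr5:146009569-146009868, minus strand): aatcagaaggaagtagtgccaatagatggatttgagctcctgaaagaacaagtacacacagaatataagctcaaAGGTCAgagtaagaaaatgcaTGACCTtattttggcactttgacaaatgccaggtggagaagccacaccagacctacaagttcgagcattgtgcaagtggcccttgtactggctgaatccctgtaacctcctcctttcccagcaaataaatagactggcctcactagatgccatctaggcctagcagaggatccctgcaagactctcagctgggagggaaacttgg
Cyp3a59 (chr5:146079008-146079307, plus strand): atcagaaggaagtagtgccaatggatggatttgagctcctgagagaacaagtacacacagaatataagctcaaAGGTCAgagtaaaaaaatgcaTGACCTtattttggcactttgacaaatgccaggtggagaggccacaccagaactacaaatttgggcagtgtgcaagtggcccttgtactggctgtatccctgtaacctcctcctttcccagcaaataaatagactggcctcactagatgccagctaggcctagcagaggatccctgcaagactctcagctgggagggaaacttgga

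All 10 members had a RefSeq promoter. The HNF4 motif, a binding sequence of the liver factor Hnf4a, was found in Cyp3a11, Cyp3a16, Cyp3a41a and Cyp3a41b, and in 0.477% of all 27025 promoters of this length. In Cyp3a11 it began 109 bases before the RefSeq start. The gene as given in the count table begins upstream of that start, at chr5:145879964. By those coordinates the motif lies at the very start of the gene and not before it. AGGTCA was found in Cyp3a11, Cyp3a25, Cyp3a44 and Cyp3a59, with 2 matches each in Cyp3a25 and Cyp3a59, and in 16% of all promoters. AGTTCA was found in Cyp3a11, Cyp3a41a and Cyp3a41b and in 14% of all promoters. None of the matches overlapped another. Both strands were also searched for paired half-sites, namely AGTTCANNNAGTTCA and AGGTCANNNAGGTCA (direct repeats with 3 bases between), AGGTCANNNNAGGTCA (a direct repeat with 4) and TGAACTNNNNNNAGGTCA (an everted repeat with 6). No member's window held these letters, which occurred in 0%, 0.0074%, 0.0111% and 0% of all promoters in the order given. The promoters of Cyp3a25 and Cyp3a59 were 96.3% identical, those of Cyp3a41a and Cyp3a41b 99.7%, and those of Cyp3a16 and Cyp3a44 95.9%. Cyp3a11 was 82.2% identical to Cyp3a16 and 79.2% to Cyp3a44 over this window. A match describes the letters in these windows only, and no binding was measured.

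Cyp3a11 dominated the Cyp3a transcripts of every liver. Levels were compared between genes as CPM, scaled by the trimmed mean of M-values (TMM), per kilobase (kb) of deposited gene length. Over the 14 mice Cyp3a11 had a mean of 2279 CPM per kb and was 10.97 times the level of Cyp3a25, the next member. It ranked 31st of all genes per kb and 5th in CPM, and took 1.15% of all reads. Cyp3a25 had a mean of 208 CPM per kb and was 3.58 times the level of Cyp3a13, which had 58.0 CPM per kb. The ranges of these 3 genes over the 14 mice did not overlap. The receptors came next, with Nr1i2 at 20.1 and Nr1i3 at 18.8 CPM per kb. Their ranges overlapped, and Nr1i2 was the higher in 9 of 14 mice.

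The 5 remaining Cyp3a genes had far fewer counted reads. Cyp3a44 had a mean of 10.8 CPM per kb and overlapped the range of Nr1i3. Cyp3a59 (1.498 CPM per kb) and Cyp3a16 (1.20 CPM per kb) overlapped each other, with Cyp3a59 the higher in 10 of 14 mice. Cyp3a41b and Cyp3a41a, which are known as female-predominant genes, had 0.146 and 0.0428 CPM per kb in these males. These levels rest on uniquely mapped reads while 88.2% and 90.8% of the windows of these genes occur in another gene, so their true levels may be higher and their place in the order is uncertain. The Cyp3a genes beyond the members gave 30 reads in all for Cyp3a63-ps, a pseudogene, and no read for Cyp3a61-ps1 or Cyp3a57. The places of Nr1i3, Cyp3a13 and Nr1i2 depended on the length used. The deposited gene length is 5093 bases for Cyp3a11 and 4414 bases for Nr1i3, against 2344 and 1414 bases for their main transcripts. Divided by main transcript length, a choice made after seeing the data, Nr1i3 was 3rd at 58.7 CPM per kb, Cyp3a13 4th at 58.0 and Nr1i2 5th at 20.1. Cyp3a11 was then 22.9 times the level of Cyp3a25.

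**Figure D1:**
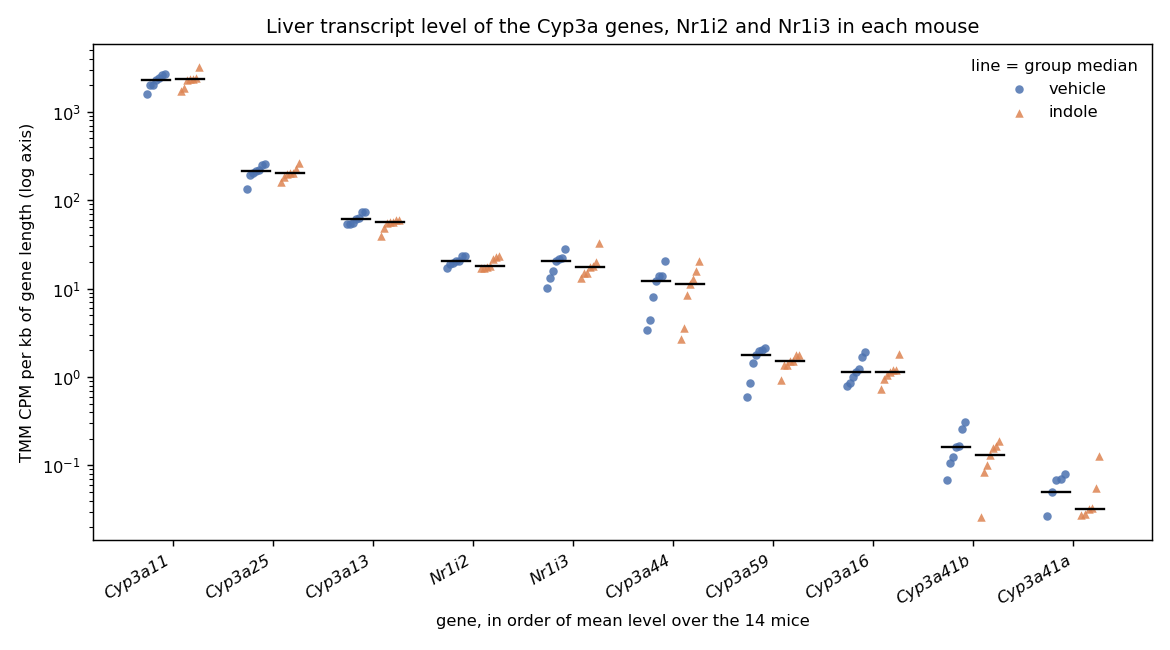
Level of each member in each of the 14 mice as TMM CPM per kb of gene length on a log axis, with circles for vehicle, triangles for indole and a line at each group median. Each gene's vehicle and indole points overlap, Cyp3a11 lies between 1604 and 3258 CPM per kb, and Cyp3a44 spans 2.67 to 20.6 CPM per kb. The 3 libraries without a Cyp3a41a read are not drawn.

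The same picture held for each group taken alone. Of the summed per-kb level of the 8 Cyp3a genes, Cyp3a11 made up 88.5% ± 1.23 (SD, n = 7) with vehicle and 89.4% ± 1.19 (SD, n = 7) with indole. Cyp3a25 made up 8.35% ± 1.12 (SD, n = 7) with vehicle and 8.03% ± 1.09 (SD, n = 7) with indole. Cyp3a13 made up 2.56% ± 0.758 (SD, n = 7) with vehicle and 2.11% ± 0.307 (SD, n = 7) with indole. These shares differed between the groups by less than 1 SD of either group except for Cyp3a13 in the indole group, whose smaller SD the difference exceeded. The summed level was 2519 ± 410 CPM per kb (SD, n = 7) with vehicle and 2598 ± 529 (SD, n = 7) with indole. These shares and sums are descriptions without a test. Divided by main transcript length, Cyp3a11 made up 94.2% with vehicle and 94.7% with indole.

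Whether indole shifted any member was asked with edgeR's quasi-likelihood test over the 12653 genes with enough reads, adjusted by Benjamini-Hochberg over all of them. Of the 10 members 8 could be tested, and none was called at an adjusted p below 0.05, beside 0% of all genes tested. At an unadjusted p below 0.05, edgeR and the exact permutation test called 0 of the 8 and DESeq2 called 0 members, beside 3.81% of all genes in edgeR, 3.19% in DESeq2 and 4.2% in the exact permutation test. The edgeR log2 fold change (indole minus vehicle) was below 0 for 7 of the 8 and above 0 for Cyp3a11, with a median of -0.04 beside 0.00 over all genes tested, of which 51.3% were above 0. The difference in mean log2 CPM used by the exact permutation test was above 0 for Cyp3a59 (0.023) and Nr1i3 (0.0026) as well. For 6 of the 8 the sign changed in at least 1 fit that left out a single mouse, while Cyp3a13 and Nr1i2 stayed below 0 in all 14 such fits. In whole liver, a lower value can stand for fewer cells of a type or less RNA per cell, which cannot be told apart. The adjusted p was 0.998 in edgeR for all 8.

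**Figure D2:**
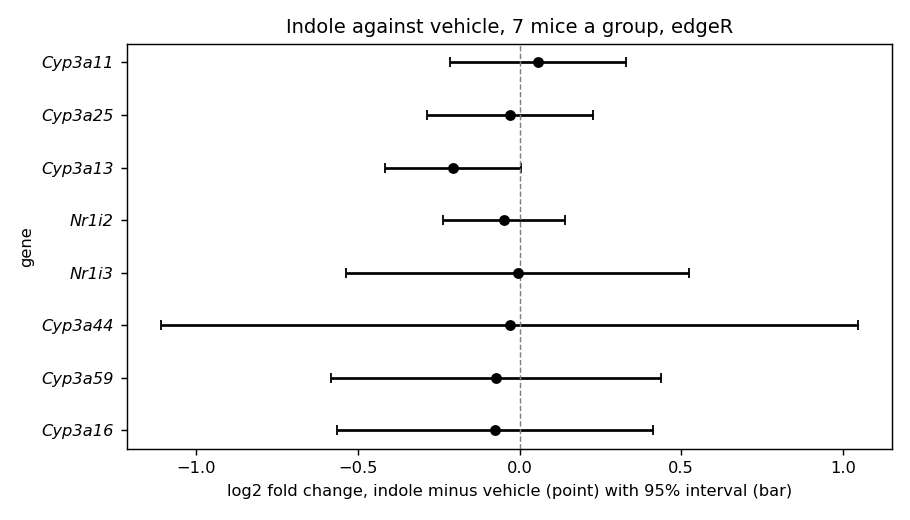
Log2 fold change (indole minus vehicle) of the 8 members tested, with the edgeR estimate as a point and its 95% interval as a bar, in order of level from the top. Every interval includes 0, the narrowest belongs to Nr1i2 and the widest, from -1.11 to 1.05, to Cyp3a44.

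Cyp3a11, the main PXR target among the members, was at 8168 to 13686 CPM with a median of 11608 in the vehicle group. With indole it was at 8686 to 16594 CPM with a median of 11843. The groups overlapped almost wholly, with G13 lowest among vehicle mice and G5, an indole mouse, the 1 liver above all vehicle livers. The log2 fold change was 0.06 (SE 0.130, 95% interval -0.21 to 0.33, edgeR, adjusted p = 0.998). On a linear scale the interval ran from 0.862-fold to 1.26-fold. Without G5, the mouse with the highest erythroid level (1091 CPM), it was -0.04, and without G13 it was -0.01, so its sign rested on single mice. The part of blood RNA in the values of the members was not tested.

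Cyp3a25, expressed in adult liver and intestine, was at 281 to 532 CPM with a median of 443 with vehicle and at 336 to 543 CPM with a median of 421 with indole. Here too G13 and G5 were the lowest vehicle and the highest indole liver, and the groups overlapped. Its log2 fold change was -0.03 (SE 0.123, 95% interval -0.29 to 0.23). Cyp3a59, its near-identical neighbour, was at 1.18 to 4.26 CPM with a median of 3.51 with vehicle and at 1.84 to 3.53 CPM with a median of 3.02 in the indole group. The vehicle mice spanned the wider range and enclosed every indole mouse. Its log2 fold change was -0.07 (SE 0.245, 95% interval -0.58 to 0.44).

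Cyp3a13, a member of the family also known from intestine, had the lowest p of the 8. It was at 158 to 219 CPM with a median of 181 in the vehicle group. With indole it was at 116 to 177 CPM with a median of 169. All 7 indole mice were below the vehicle median, and 2 of them were below every vehicle mouse. The log2 fold change was -0.21 (SE 0.101, 95% interval -0.42 to 0.0053), with an unadjusted edgeR p of 0.0555. The exact permutation test over all 3432 relabellings of the mice, two-sided, gave p = 0.0979 and an adjusted p of 0.998. Leaving out 1 mouse moved the edgeR p to either side of 0.05. It was below 0.05 without G1, G4, G7, G10 or G14, lowest at 0.0353 without G4, and highest at 0.142 without G11. G2, without which the edgeR p was 0.134, had the lowest level of all mice and G11 the highest.

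Cyp3a44, known as female-predominant in adult liver, differed most from mouse to mouse among the 8 members tested. In the vehicle group it had 122 to 826 reads, or 6.69 to 40.3 CPM with a median of 24.0. In the indole group it had 100 to 617 reads, or 5.25 to 40.4 CPM with a median of 21.9. Low livers occurred in both groups (G4 and G10 with vehicle, G2 and G3 with indole), as did the highest (G9 and G5). The spread was 7.69-fold from the lowest to the highest mouse, against 2.03-fold for Cyp3a11. Its biological coefficient of variation in edgeR, the replicate spread beyond counting error, was 0.627, above 99.7% of the 2063 genes within 0.5 log2 units of its mean CPM. The log2 fold change was -0.03 (SE 0.495) and its 95% interval was -1.11 to 1.05, or 0.464-fold to 2.06-fold on a linear scale. Per 100 reads of Cyp3a11, its transcript relative, it had 0.0656 to 0.294 reads with vehicle and 0.0546 to 0.266 with indole, a 5.39-fold range over the mice.

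Cyp3a16, known mainly from fetal and newborn liver, had 503 reads in all and was at 1.37 to 3.32 CPM with a median of 1.95 with vehicle and at 1.28 to 3.14 CPM with a median of 1.99 with indole. The groups overlapped over nearly their whole ranges. Its log2 fold change was -0.08 (SE 0.235, 95% interval -0.57 to 0.41). Cyp3a41a had 23 reads over the 14 mice, with none in 2 vehicle mice and 1 indole mouse. A count of 0 allows up to 3 reads. Cyp3a41b had 74 reads, 44 with vehicle and 30 in the indole group, at 3 to 13 reads a vehicle mouse and 1 to 7 reads an indole mouse. Neither passed the filter on low counts, so no fold change is given, and reads that mapped to both are not in these counts. With their counted reads summed as 1 gene, which does not recover the reads left out, Cyp3a16, Cyp3a41a, Cyp3a41b and Cyp3a44 had a log2 fold change of -0.04 (SE 0.440).

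Nr1i2, which encodes PXR, was the steadiest member. It was at 43.8 to 59.1 CPM with a median of 52.0 in the vehicle group. With indole it was at 43.9 to 59.5 CPM with a median of 46.1. The ranges were almost the same, and 3 of 7 indole mice lay above the vehicle median. Its log2 fold change was -0.05 (SE 0.0904), and the 95% interval of -0.24 to 0.14 was the narrowest of the 8. The coefficient of variation of its CPM was 10.8% with vehicle and 13.97% with indole.

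Nr1i3, which encodes CAR, varied far more than Nr1i2. It was at 44.4 to 125 CPM with a median of 91.8 in the vehicle group. With indole it was at 58.4 to 145 CPM with a median of 77.4. Of the indole mice 1, G3, lay above every vehicle mouse and 6 lay below the vehicle median. The log2 fold change was -0.01 (SE 0.246, 95% interval -0.54 to 0.53), and its sign changed when any of 9 single mice was left out. The biological coefficient of variation was 0.317, above 97.9% of the 959 genes within 0.5 log2 units of its mean CPM. For Nr1i2 it was 0.135, above 63.7% of 1375 such genes.

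Whether mice with more receptor transcript had more target transcript was asked over 19 relations, chosen among the receptors, the 4 Cyp3a genes Cyp3a11, Cyp3a13, Cyp3a25 and Cyp3a59, and the PXR and CAR targets Cyp2b10 and Cyp2c29. Each used log2 CPM with the group mean removed over the 14 mice and a two-sided permutation test with 100000 permutations of mice within groups, adjusted over the 19. None of the 12 relations between a receptor and a target passed an adjusted p of 0.05. The lowest p by r was that of Nr1i2 and Cyp2c29, with r = -0.55 (permutation p = 0.0619, adjusted p = 0.320) and rho = -0.35 (permutation p = 0.251, adjusted p = 0.549), and r was -0.37 without G3 and G12. Without G5 alone, r of this pair was -0.77 and its adjusted p 0.0473 by the same permutation test. The lowest p by rho was that of Nr1i3 and Cyp3a59, which was positive, with rho = 0.57 (permutation p = 0.0466, adjusted p = 0.295) and r = 0.35 (permutation p = 0.267, adjusted p = 0.634), and r was 0.50 without G3 and G9. Nr1i3 and Cyp3a11 had r = -0.51 (permutation p = 0.0751, adjusted p = 0.320) and rho = -0.48 (permutation p = 0.0984, adjusted p = 0.374), and r was -0.21 without G3 and G9. Nr1i2 and Cyp3a11 had r = -0.31 (permutation p = 0.306, adjusted p = 0.645) and rho = -0.33 (permutation p = 0.260, adjusted p = 0.549), and r was -0.19 without G3 and G12. The liver with the least Nr1i2 (G11) and the liver with the least Nr1i3 (G9) were thus not the liver with the least Cyp3a11 (G13). Nr1i2 and Nr1i3 had r = 0.37 (permutation p = 0.208, adjusted p = 0.634) and rho = 0.27 (permutation p = 0.350, adjusted p = 0.606), and r was 0.15 without G3 and G12.

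The relations that passed by r were 2, both between Cyp3a genes, and 1 of them passed by rho as well. Cyp3a25 and Cyp3a59 had r = 0.88 (permutation p = 3.0e-05, adjusted p = 0.00057) and rho = 0.81 (permutation p = 0.00052, adjusted p = 0.00988). It was 0.82 without G5 and G13, 0.90 within the vehicle group and 0.91 within the indole group, and it held without any single mouse. Cyp3a59 had 0.421 to 0.949 reads per 100 reads of Cyp3a25 with vehicle and 0.547 to 0.740 in the indole group, a 2.25-fold range over the mice. The transcripts are 97.0% identical, and reads that mapped equally well to both were left out by the study's counting of uniquely mapped reads. The part of their likeness in the relation was not tested. Cyp3a11 and Cyp3a25, whose transcripts share no window, had r = 0.72 (permutation p = 0.00515, adjusted p = 0.0489) and rho = 0.65 (permutation p = 0.0188, adjusted p = 0.178). It rested on the farthest mice, with r = 0.45 without G5 and G13, and on 14 libraries of which leaving out any of 9 (G1, G2, G5, G6, G7, G8, G11, G12 or G13) took the adjusted p above 0.05, up to 0.260 without G13.

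**Figure D3:**
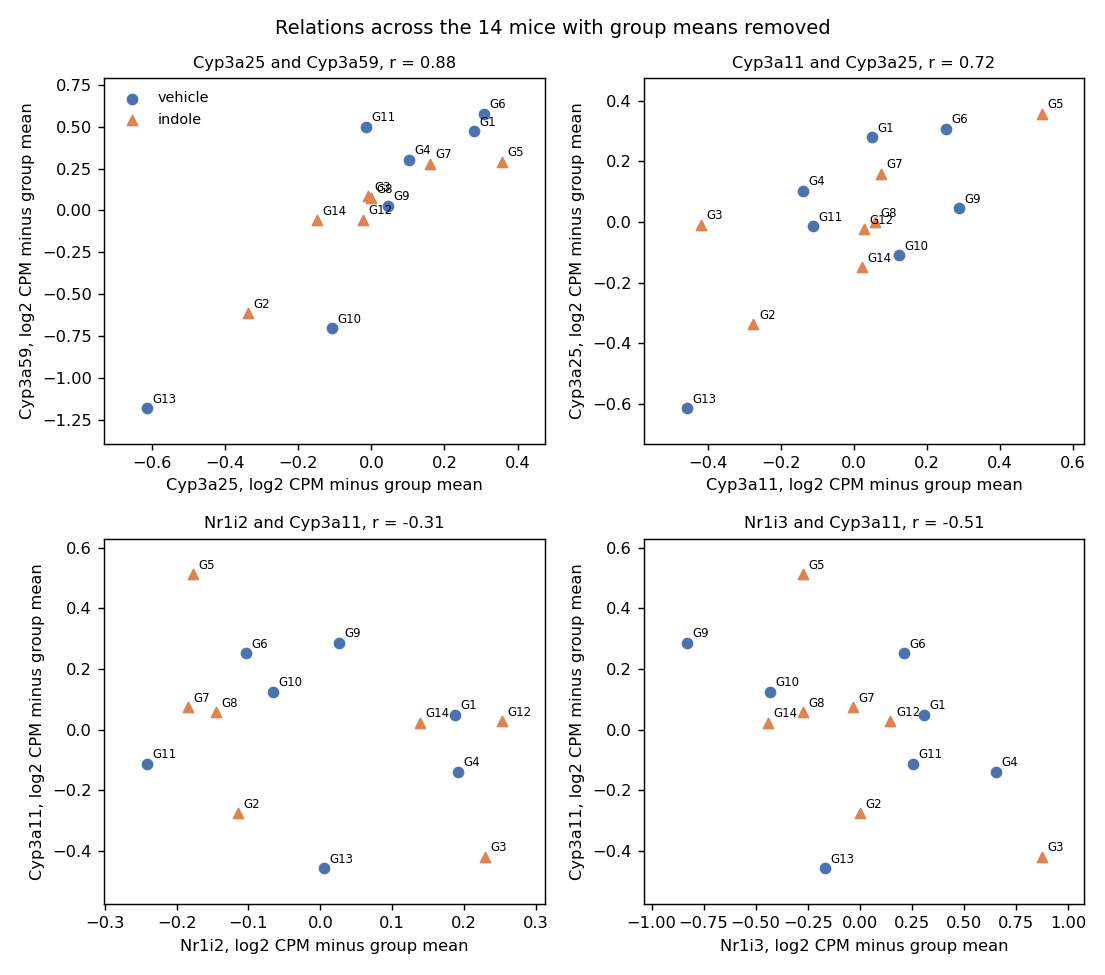
Log2 CPM of pairs of genes in the 14 mice with the group mean removed from each, circles for vehicle and triangles for indole, each point labelled with its mouse. Cyp3a25 and Cyp3a59 rise together (r = 0.88), the pair Cyp3a11 and Cyp3a25 is spread by G13 at the lower end and G5 at the upper, and neither receptor rises with Cyp3a11 (r = -0.31 for Nr1i2 and -0.51 for Nr1i3).

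Other pairs of members are given as descriptions without a test, over the same 14 mice with group means removed. Cyp3a13 and Cyp3a44, which share no window of transcript, had r = 0.77. Cyp3a11 had r = 0.66 with Cyp3a16 and 0.58 with Cyp3a44. Its transcript is 91.6% identical to that of Cyp3a16 and 93.5% to that of Cyp3a44, and shares windows with both. Cyp3a16 had 503 reads against 2840957 for Cyp3a11. The part of this likeness in the counts and relations was not tested. Nr1i3 and Cyp3a44 had r = -0.54, whereas Cyp3a13 had r = 0.01 with Cyp3a16 and -0.05 with Cyp3a25. In G1 to G4, the libraries with the lowest hepatocyte sums, Cyp3a13 was at 116 to 159 CPM, against 163 CPM or more elsewhere. Cyp3a44 was lowest in G2, G4 and G3 (5.25 to 7.05 CPM), followed by G10 (8.74 CPM), with 16.0 CPM in G1. Nr1i3 was highest in G3, G4 and G1 (145, 125 and 98.1 CPM), with 79.4 CPM in G2. The part of these libraries in these values of r was not tested.

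The genes most like each member across mice were taken from all 12653 tested, by Pearson's r of log2 CPM with the group mean removed over the 14 mice. For Cyp3a11 these were Dhrs11 (r = 0.90), Pecr (0.90) and Hsd17b11 (0.89), all oxidoreductases of lipid or carbonyl substrates. For Cyp3a25 they were Gsta4 (0.93), a glutathione transferase, Hpgd (0.92), which oxidises prostaglandins, and Emcn (0.89), an endothelial surface protein. For Cyp3a13 they were Esr1 (0.94), the oestrogen receptor alpha gene, Fads2 (0.94), a fatty acid desaturase, and C3 (0.92), a complement component. Those of Cyp3a16 were Aurkaip1 (0.95), Msra (0.92) and Acaa2 (0.91). Those of Cyp3a44 were Gpat4, Capza2 and Nucb1 (all 0.90), and those of Cyp3a59 were 4931406C07Rik (0.92), Slc47a1 (0.91) and Nipal1 (0.86). Nr1i2 was most like Usp8 (0.91), Cbx7 and Ccnt2 (both 0.90), and Nr1i3 most like Zfp664 (0.89), Med20 (0.88) and Gm15408 (0.87). No gene was shared between these lists. With 14 mice and 12653 genes such values are the extremes of a wide search, and they carry no test.

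The rest of the pathway was read from lists of genes. Of 32 tested PXR and CAR target enzymes and transporters other than Cyp3a, 19 were above 0 and 13 below, with a median log2 fold change of 0.03. In this list 1 gene was higher with indole at an unadjusted p below 0.05, beside 1.53% of all genes tested, and none was lower, beside 2.28%. That gene was Cyp2c29, an epoxygenase induced through CAR, at 1623 to 2099 CPM with a median of 1922 with vehicle and at 2147 to 2773 CPM with a median of 2684 in the indole group. All 7 indole mice lay above all 7 vehicle mice, as happened in either direction for 6 genes, or 0.0474% of those tested. Its log2 fold change was 0.41 (SE 0.0878, edgeR adjusted p = 0.998), and the exact permutation test, two-sided, gave p = 0.000583, the smallest that it can give. Adjusted over all genes tested, the p of this permutation test was 0.998. Gstm1, a glutathione transferase and with Cyp2c29 the most abundant per kb, had a log2 fold change of 0.14 (SE 0.106). Cyp2b10, the usual readout of CAR, had a log2 fold change of -0.26 (SE 0.442).

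Of 26 tested receptor partners, cofactors and upstream regulators, 4 were above 0 and 22 below, with a median log2 fold change of -0.07 beside 0.00 over all genes. The 1 gene of the 26 at an unadjusted p below 0.05, beside 3.81% of all genes tested, was Foxa3, a liver forkhead factor, at 16.4 to 37.2 CPM with vehicle and 15.6 to 26.9 CPM with indole. Its log2 fold change was -0.43 (SE 0.177, edgeR adjusted p = 0.998). The exact permutation test gave p = 0.067, and in edgeR no gene of the list had a p below 0.05 without G4, G5, G7 or G10. Hnf4a, which drives Nr1i2 and Cyp3a genes in liver, had a log2 fold change of -0.07 (SE 0.0706) and Cebpa, a hepatocyte factor, -0.14 (SE 0.0784). Most of these genes thus lay slightly below 0, and no set test was made.

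Of 11 genes of the CAR retention complex and phosphatase pathway, 7 were above 0 and 4 below, none at an unadjusted p below 0.05, beside 3.81% of all genes tested, with a median of 0.04. Hsp90ab1, a chaperone of the complex that holds CAR in the cytoplasm, had a log2 fold change of 0.04 (SE 0.0780) and Rack1, a scaffold for its dephosphorylation, 0.05 (SE 0.0902). Hsp90aa1, the other HSP90 gene of the list, had the highest log2 fold change of the 11, at 0.27 (SE 0.138). Of 6 electron donors and haem suppliers of P450 enzymes, 4 were above 0 and 2 below, again none at an unadjusted p below 0.05 beside the same 3.81%, with a median of 0.07. Cyb5a, which passes electrons to CYP3A enzymes, had a log2 fold change of 0.07 (SE 0.0896) and Pgrmc1, a haem-binding partner of P450 enzymes, 0.11 (SE 0.0726).

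Because Cyp3a41a, Cyp3a41b and Cyp3a44 are known as female-predominant, other liver genes of either sex pattern were placed beside them. Of 10 tested female-predominant genes 9 were below 0, with a median log2 fold change of -0.28, and of 12 male-predominant genes 11 were above 0, with a median of 0.29, beside 51.3% of all genes above 0. Both medians moved with single mice, the female one to -0.65 without G3 and -0.023 without G11, and the male one to 0.11 without G2 and 0.47 without G10. None of the 22 was at an unadjusted p below 0.05, beside 3.81% of all genes tested. Like Cyp3a44, several of them spread widely between mice of both groups. Cyp2b9, female-predominant, was at 4.59 to 187 CPM with vehicle and 0.630 to 105 CPM with indole. A1bg, of the same kind, was at 128 to 406 CPM with vehicle and 27.8 to 590 CPM with indole. The order of mice differed from that of Cyp3a44, since A1bg and Cyp3a44 were both lowest in G2 among indole mice, but among vehicle mice A1bg was highest in G4 and lowest in G9, where Cyp3a44 was lowest and highest. Among male-predominant genes Cyp2d9 had a log2 fold change of 0.16 (SE 0.121) and Mup20, a pheromone carrier, 0.22 (SE 0.385). Cyp3a44 itself was at -0.03.

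**Figure D4:**
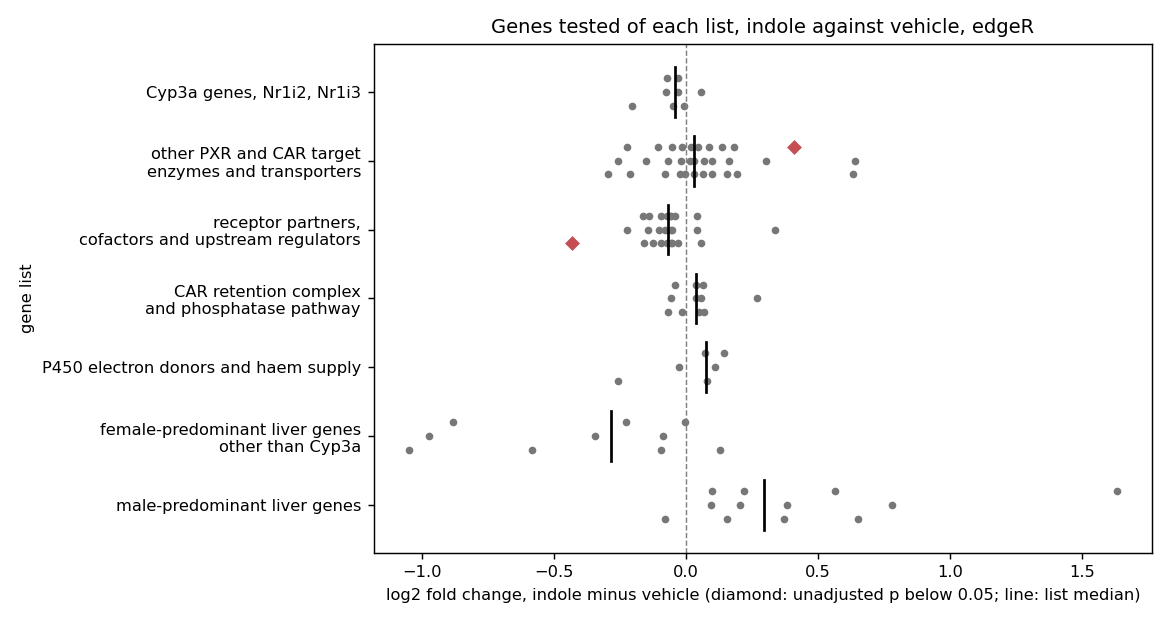
Log2 fold change (indole minus vehicle) of every tested gene of the members and 6 other lists, with a line at each list median and a red diamond at an unadjusted p below 0.05. Cyp2c29 (0.41) and Foxa3 (-0.43) are the only diamonds, the members lie between -0.21 and 0.06, and the sex-pattern lists spread widest.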

How the data were processed

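Per the labels and the study's methods, the authors sequenced polyadenylated liver RNA of 14 mice with a strand-specific kit. HISAT2, GRCm38 and DESeq2 are named in the submitters' processing notes, without versions used here, and the counting tool and read length are not given in the sources used here. Per the study's methods, only uniquely mapped reads entered the counts, which lowers the values of genes with near-identical copies. The deposited values are raw counts of reads per gene, with gene lengths and coordinates, for 55487 genes. Groups came from the labels, and totals were 15197498 to 21060376 reads a library. In the comparisons of indole with vehicle, p-values set the difference between the groups against the spread between mice. The precision of scarce genes is set by their reads, and the limit of a count of 0 covers counting error only.

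Counts were scaled by TMM, filtered with filterByExpr (minimum count 10), which left 12653 genes, and fitted with edgeR 4.0.16 (glmQLFit, robust, and glmQLFTest) in R 4.3.3, with no covariates and Benjamini-Hochberg adjustment. CPM for relations used log2 with a prior count of 2. The exact permutation test enumerated 3432 relabellings, with 0.000583 as its smallest p. Transcript windows and identities used GENCODE transcripts, of another release than the study's annotation, and promoters RefSeq, read with Biopython 1.88. The fit was tested on simulated counts with known changes. DESeq2 1.42.0, limma 3.58.1 (voom), sva 3.50.0, other scalings and filters, and leaving out each mouse were alternatives.

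Named genes were all members, and of each list every gene at an unadjusted p below 0.05 in edgeR and the 2 most abundant per kb, and the 3 genes most like each tested member. Cyp2b10 was named as part of the relations, and Hsp90aa1 as the second HSP90 gene of its list. Members, lists and marker sets were chosen with earlier results of these data known, so none is independent evidence. Summed marker levels in other lists were as follows. Kupffer and macrophage markers ran from 109 to 284 CPM with vehicle and 128 to 526 with indole, highest in G8. Sinusoidal endothelial markers were at 60.6 to 105 and 76.3 to 138 CPM, stellate and fibroblast markers at 235 to 280 and 154 to 330, bile duct markers at 33.0 to 46.5 and 27.4 to 45.1, and lymphocyte markers at 0.333 to 2.38 and 0.787 to 2.81. Pericentral hepatocyte markers were at 6091 to 9221 and 6805 to 8395 CPM and periportal ones at 4562 to 6334 and 3770 to 6649. Intestinal markers, nearly all Fabp2, were at 42.3 to 64.3 and 49.6 to 73.5 CPM, and pancreatic ones, nearly all Cela1, at 9.93 to 13.2 and 10.1 to 19.7.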

Additional observations from a re-analysis of the deposited data

Results flagged for a closer look

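Values of single mice that stood apart from the other 6 of their group were searched for with Dixon's ratio, the gap to the nearest mouse divided by the range of the group, against its 95% critical value of 0.568. In 62 comparisons 4 passed, where chance alone gives 3.1. All 4 were in the indole group. In G2, Cyp3a59 had the lowest log2 CPM, with a ratio of 0.614. In G8, Cyp3a16 made up the lowest percent of the summed Cyp3a level, with a ratio of 0.730. In G3, Cyp3a25 made up the highest percent, 10.3%, with a ratio of 0.593. In G2, Cyp3a41a made up the highest percent, with a ratio of 0.666, and this rests on 5 reads.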

How the results depend on the processing

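No member was called at an adjusted p below 0.05 under any alternative. At an unadjusted p below 0.05 the count of members was 1, Cyp3a13, with no filter on low counts and with 1 surrogate variable, and 0 to 1 when a mouse was left out. The share of all genes at that p was 3.81% in the main fit and is not given here for these alternatives. The direction reversed for Cyp3a11 with 1 surrogate variable (-0.011), for Cyp3a59 with limma voom (0.056) and for Nr1i3 with both (0.042 with voom, 0.059 with the surrogate variable), and the cause was not tested. Leaving out each mouse gave log2 fold changes of -0.042 to 0.12 for Cyp3a11, -0.21 to 0.062 for Cyp3a16, -0.11 to 0.025 for Cyp3a25, -0.27 to 0.20 for Cyp3a44, -0.22 to 0.022 for Cyp3a59 and -0.20 to 0.12 for Nr1i3. Cyp3a13 (-0.24 to -0.14) and Nr1i2 (-0.09 to -0.01) stayed below 0.

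Without division by gene length Nr1i3 was 4th and Nr1i2 5th in the order of levels, and Cyp3a11 made up 94.5% of the Cyp3a sum with vehicle and 95.0025% with indole. By main transcript length, an alternative chosen after seeing the data, Nr1i3 was 3rd, Cyp3a13 4th and Nr1i2 5th, and Cyp3a11 made up 94.2% and 94.7%. Leaving out each mouse gave 1 to 2 relations at an adjusted p below 0.05, and r of -0.086 to 0.42 for Cyp3a11 and Cyp3a13, -0.44 to 0.34 for Cyp3a13 and Cyp3a25, -0.19 to 0.54 for Cyp3a13 and Cyp3a59, -0.19 to 0.081 for Nr1i2 and Cyp3a25, -0.14 to 0.11 for Nr1i2 and Cyp3a59, and -0.082 to 0.053 for Nr1i3 and Cyp2b10. It gave 1 to 3 targets, 0 to 4 partners, 0 to 1 genes of the retention complex, 0 to 1 electron donors, 0 to 1 female-predominant and 0 to 2 male-predominant genes at an unadjusted p below 0.05. These lists held 32, 26, 11, 6, 10 and 12 genes tested in the main fit, in that order, beside 3.81% of all genes there. The share of all genes in each fit without a mouse is not given here, so these counts are descriptions only. The median log2 fold change ran from -0.0094 to 0.086 for targets, 0.012 to 0.057 for the retention complex, -0.65 to -0.023 for female-predominant and 0.11 to 0.47 for male-predominant genes. Cyp3a41a and Cyp3a41b summed as 1 gene still failed the filter on low counts and gave no value. No paired analysis was made because the labels give no pairing of vehicle with indole mice.

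Cyp3a41a and Cyp3a41b had too few uniquely mapped reads for a test. The spread between mice beyond counting error, as the biological coefficient of variation, was 0.627 for Cyp3a44, 0.317 for Nr1i3, 0.301 for Cyp3a59 and 0.268 for Cyp3a16.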
